A study of Citrullus lanatus with 12 samples.

Results

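Dikaryophase anthers were compared with mononuclear-stage anthers of watermelon (Citrullus lanatus) across all 23440 genes of the expression table, with 3 libraries a side, which are 6 of the 12 libraries of the study. The plants were progeny of the variety Xinteda Zhengkang 9, grown in a greenhouse, and neither stage carried a treatment or a genetic change that the labels name. The study sequenced messenger RNA of anthers staged under the microscope as tetrad, mononuclear, dikaryophase or mature, at 3 libraries each. The tetrad and mature libraries serve here as reference points whose levels do not enter the difference between the middle stages. RNA came from whole anthers, so each library holds the pollen together with the surrounding anther wall. In such bulk samples, fewer cells of a type and less RNA per cell cannot be told apart.

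In flowering plants the microspores released from the tetrad each carry a single nucleus. They enlarge, and an asymmetric pollen mitosis then gives a large vegetative cell with a small generative cell enclosed in it. The tapetum, the innermost layer of the anther wall, feeds the microspores and supplies pollen wall material, and it degenerates as pollen matures. The vegetative cell meanwhile accumulates the reserves and messenger RNAs that later serve pollen germination and tube growth. The mononuclear stage and the dikaryophase lie on either side of that mitosis. No table used here pairs the gene IDs with names or descriptions. Genes are therefore given by ID, nothing is said of what they do, and the markers of pollen, tapetum or other anther cells could not be checked.

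The 6 libraries held 58079967 (mononuclear replicate 2) to 65554998 (mononuclear replicate 3) reads assigned to genes. CPM below is a gene's read count scaled to the total of its library, in counts per 1000000, and 1 CPM stood for 58.1 to 65.6 reads in these libraries. Of all genes, 17484 reached 1 CPM in at least 3 of the 12 libraries and were tested. Correlations of log2 levels between libraries of the same stage ran from 0.948 (mononuclear replicates 2 and 3) to 0.974 (dikaryophase replicates 2 and 3), and between the stages from 0.836 (mononuclear replicate 3 with dikaryophase replicate 2) to 0.902 (mononuclear replicate 2 with dikaryophase replicate 3). Mononuclear replicate 2 thus had the highest correlation with each of the 3 dikaryophase libraries among the mononuclear libraries. Several results that rest on it are also given without it. The labels do not say whether the 3 libraries of a stage came from different plants, so the tests rest on differences among these libraries alone, which may be technical.

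At the dikaryophase, 605 genes were higher and 506 lower than at the mononuclear stage. A gene was called when its difference in mean log2(normalised reads + 1) was at least 1, a 2-fold change, and its limma p was under 0.05 after Benjamini-Hochberg adjustment over all tested genes. The 1111 called genes were 6.35% of those tested, with 3.46% higher and 2.89% lower. The median log2 change was 2.50 among the rises and -2.06 among the falls, against 0.00 over all tested genes. The mononuclear and dikaryophase libraries did not overlap for 1100 of the called genes, and for 4519 of all tested genes (25.8%), of which 2159 were higher and 2360 lower at the dikaryophase. The excess of rises was not stable: with the adjusted p alone and no threshold on size, 884 genes rose and 1023 fell, and with mononuclear replicate 1 left out 520 rose and 523 fell. With mononuclear replicate 2 left out, 567 genes rose and 394 fell, and 517 and 378 of these were among the 605 and 506.

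**Figure D1:**
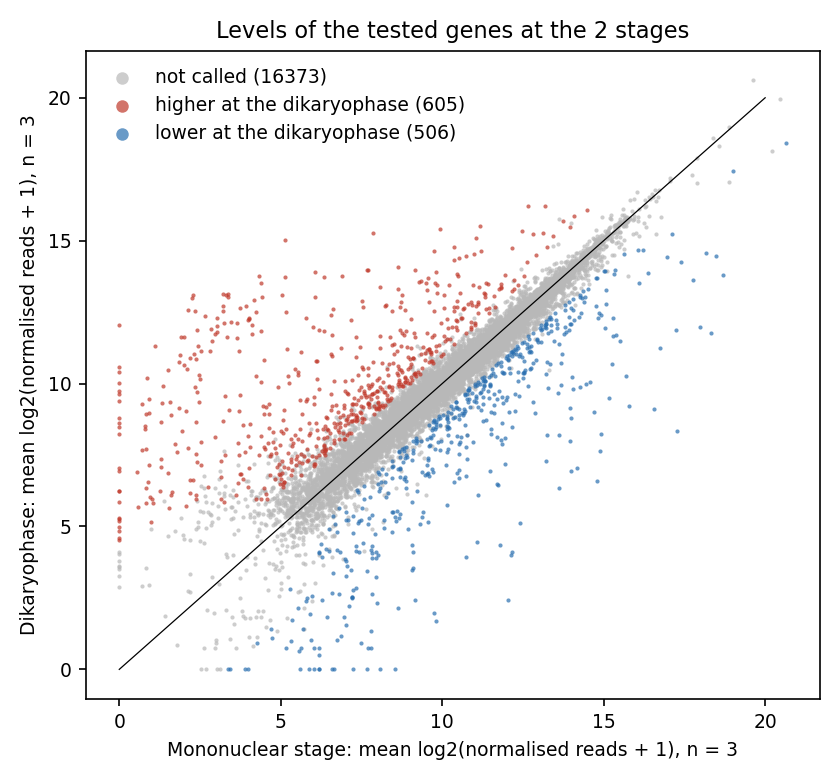
Each point is a tested gene, placed by its mean log2(normalised reads + 1) over the 3 mononuclear libraries (horizontal) and the 3 dikaryophase libraries (vertical). The 605 genes called higher at the dikaryophase (red) lie above the line of equal levels, many of them with few mononuclear reads, and the 506 called lower (blue) lie below it.

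Most tested genes changed little between the stages. For 13282 of them (76.0%) the 95% interval of the difference lay wholly within a 2-fold change in either direction. The median size of the log2 difference over all tested genes was 0.19, and the median standard error 0.17. A further 3091 genes were not called and had an interval reaching beyond 2-fold, so that a change of that size could neither be called nor bounded for them at this number of libraries.

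Rises and falls were about equally many among the smaller changes and differed in number among the largest. Changes of 2-fold to 4-fold were made by 248 rises and 247 falls, and those of 4-fold to 8-fold by 97 and 94. Changes of 8-fold to 16-fold counted 62 rises and 68 falls. From 16-fold to 32-fold there were 54 rises and 36 falls, and at 32-fold or more 144 and 61. With each of the 6 libraries left out in turn, rises of at least 32-fold numbered 125 to 175 and such falls 50 to 75. With a pseudocount of 10 in place of 1, which draws in the changes of genes with few reads, such rises numbered 104 and such falls 33.

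**Figure D2:**
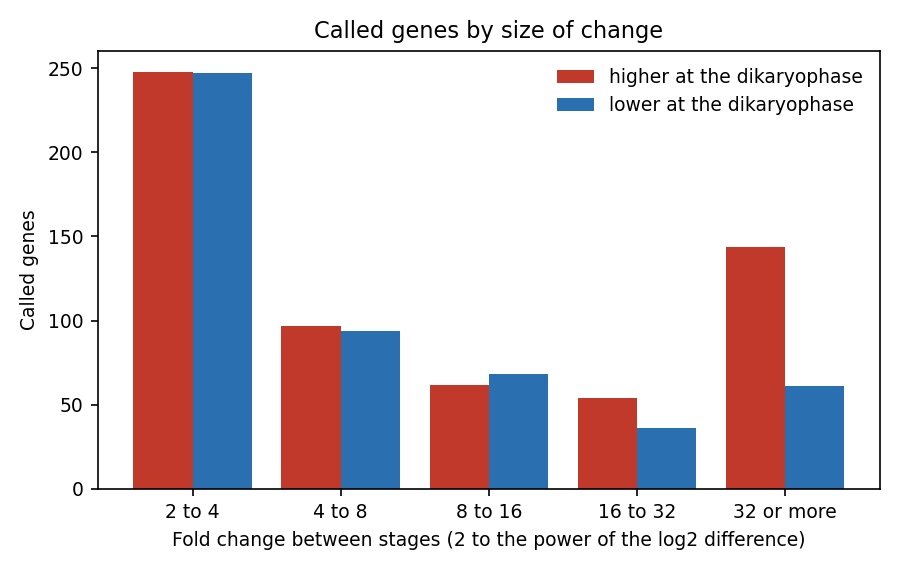
Bars give the number of called genes in each class of fold change between the stages (horizontal), for genes higher (red) and lower (blue) at the dikaryophase. The pair of bars is level at 2-fold to 4-fold (248 and 247) and unequal at 32-fold or more (144 and 61).

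The genes with the largest rises were at low levels before the dikaryophase, which their choice by fold change favours at the mononuclear stage. Among the 144 genes with rises of at least 32-fold, the median level was 0 CPM in mononuclear replicates 1 and 3 and 1.23 CPM in replicate 2, and 38.1, 48.1 and 18.4 CPM in dikaryophase replicates 1 to 3. In the tetrad libraries, which this difference does not use, their medians were 0, 0 and 0.0331 CPM, and in the mature libraries 202, 157 and 105 CPM. Mononuclear replicate 2 stood apart from the other mononuclear libraries here, with 77 of the 144 genes at 1 CPM or more against 7 in replicate 1 and 9 in replicate 3. Summed, the 144 genes took 0.0909% of its reads against 0.00296% and 0.00290%. The source of these reads was not tested.

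The 61 genes with falls of at least 32-fold left the mononuclear stage from moderate levels. Their median was 12.0, 44.9 and 20.3 CPM in mononuclear replicates 1 to 3, and 0.302, 0.0633 and 0.303 CPM in dikaryophase replicates 1 to 3. At the tetrad stage the medians were 33.0, 53.1 and 34.7 CPM, and at the mature stage 0.0641 to 0.0769 CPM. Mononuclear replicate 2 was the highest of its stage for these falling genes as well as for the rising ones.

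Most genes that rose reached 1 CPM in a mononuclear library, but a larger share of them than of uncalled genes did not. Of the 605 rises, 442 reached 1 CPM in at least 1 mononuclear library, and 92 were at 10 CPM or more in all 3. The other 163 (26.9%) were under 1 CPM in each mononuclear library, and 23 of them had no read there. Of the tested genes not called, 2.09% were under 1 CPM in each mononuclear library. The choice of rises by fold change favours such genes. These counts followed mononuclear replicate 2: judged on the other 2 mononuclear libraries, 252 of the 605 were under 1 CPM and 75 had no read. Genes under 1 CPM in each mononuclear library and at 10 CPM or more in each dikaryophase library numbered 13, and 80 without replicate 2, an alternative chosen after seeing the data. Of the 506 falls, 394 still reached 1 CPM in at least 1 dikaryophase library, and 183 were at 10 CPM or more in all 3. The remaining 112 (22.1%) were under 1 CPM in each, 15 of them with no read. Of the 112, 5 had been at 10 CPM or more in each mononuclear library. Among tested genes not called, 1.44% were under 1 CPM in each dikaryophase library.

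Mononuclear replicate 2 was often at the upper end of its stage among called genes. Among rises without ties it was the highest mononuclear library for 351 of 582 (60.3%), and among all tested genes without ties it was the highest for 30.9%. Among falls the lowest mononuclear library, the one nearest to the dikaryophase, was replicate 1 for 323 of 506 (63.8%). It was replicate 3 for 155 (30.6%) and replicate 2 for 28 (5.53%). How often each mononuclear library was the lowest over all tested genes was not counted. On the dikaryophase side, replicate 3 was the lowest for 51.1% of the rises, replicate 1 for 42.6% and replicate 2 for 6.28%. Over all tested genes without ties these libraries were the lowest of the stage for 30.0%, 36.4% and 33.6%. The spread within a stage was wider for called genes: the median SD of log2 values was 0.59 for rises and 0.42 for falls at the mononuclear stage, and 0.46 and 0.37 at the dikaryophase, against 0.21 and 0.19 over all tested genes. Calling used the same libraries, so these shares describe the called genes and support nothing further.

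Taken by reads, the falls outweighed the rises. The 506 falling genes held 10.4%, 14.6% and 12.0% of the reads of mononuclear replicates 1 to 3, and 3.30%, 1.86% and 2.39% of those of dikaryophase replicates 1 to 3. The 605 rising genes held 0.509%, 0.802% and 0.633% at the mononuclear stage, and 3.57%, 5.04% and 4.02% at the dikaryophase. The stages did not overlap for either sum, which the calls themselves bring about. In mean shares the falls gave up 9.82 percentage points of all reads and the rises gained 3.56. The loss was held by few genes, with 8 falls making up 50% of it and 2 making up 25.5%. Among them, Cla010382 went from 2.54% to 0.641% of reads between the stage means, and its call was lost in 5 of 23 alternative fits or thresholds. The gain was spread more widely, with 41 genes needed for 50% of it and 6.54% in the leading 2.

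**Figure D3:**
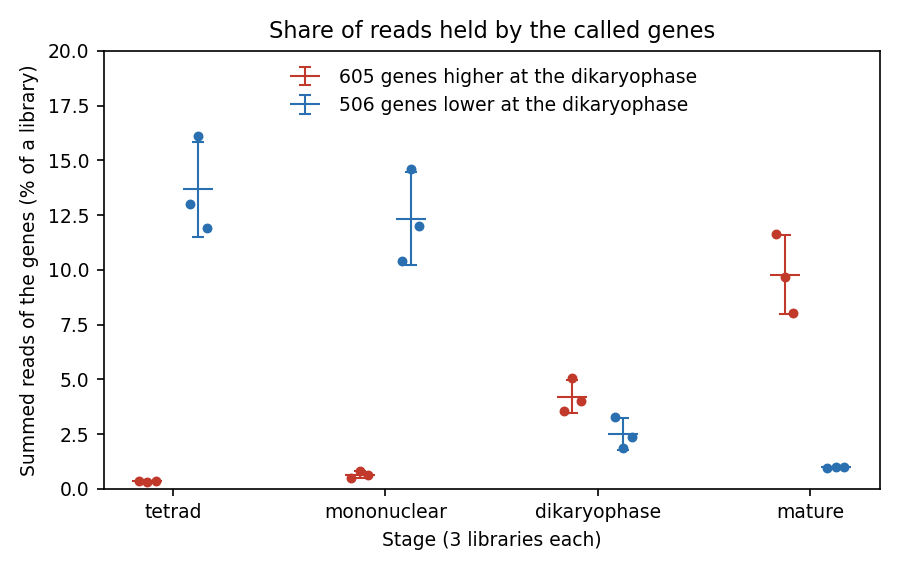
Points give the summed reads of the called genes as a percentage of each library (vertical), by stage (horizontal), with bars for the mean and SD of 3 libraries. The genes that fell (blue) hold 10.4% to 14.6% of reads in mononuclear libraries and 1.86% to 3.30% at the dikaryophase, while those that rose (red) go from 0.509% to 0.802% up to 3.57% to 5.04%, and hold 8.03% to 11.6% in the mature libraries, whose levels are not part of the difference between the middle stages.

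No gene with a mean of at least 1000 CPM over both stages was called higher. Of the 47 tested genes at that level, 13 were called lower at the dikaryophase (27.7%) and 0 higher by limma. At an unadjusted p under 0.05 with a 2-fold change, and by limma-voom, 0 were higher too, while 17 of the 47 had a log2 difference above 0. A mean over both stages favours genes high at either of them, and at the dikaryophase itself the called rises Cla010439 and Cla009288 ranked 27 and 28 of all genes by mean CPM. For 24 of the 47 the 95% interval lay within a 2-fold change. The 13 falling genes together took 7.44% ± 1.05 of reads at the mononuclear stage (SD, n = 3) and 1.28% ± 0.551 at the dikaryophase. In the tetrad libraries they took 5.31% ± 1.13 and in the mature ones 0.0723% ± 0.0261. From 100 to 1000 CPM, 2.90% of 2100 genes rose and 4.33% fell, with a median log2 rise of 3.35. From 10 to 100 CPM, 2.44% of 10004 genes rose and 2.07% fell, and from 1 to 10 CPM 5.43% of 4772 rose and 3.21% fell. Of the 561 tested genes with a mean under 1 CPM, 7.31% rose and 7.49% fell. Such genes were tested only if they reached 1 CPM in at least 3 of the 12 libraries, tetrad and mature ones included. That favours genes that differ between stages, so these shares follow in part from the filter. A gene's reads also grow with its length, which is not given in the sources used here, so these classes rank reads and not transcripts.

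The 2 genes with the largest rise in CPM and the 2 with the largest fall, among called genes whose stages did not overlap, were Cla010439 and Cla009288, and Cla010382 and Cla006059. They are given in all 12 libraries. Cla010439 had 78.7, 332 and 106 CPM in mononuclear replicates 1 to 3 and 827, 1723 and 1402 CPM in dikaryophase replicates 1 to 3. Every dikaryophase library was above every mononuclear one, and mononuclear replicate 2 stood nearest to them. The normalised reads rose 6.92-fold between the stage means, and the log2 change was 3.02 ± 0.50 (SE, n = 3 per stage, limma adjusted p = 0.00212). Without mononuclear replicate 2 it was 3.63. The gene had 1.95 to 2.18 CPM in tetrad libraries and 2205, 2291 and 955 CPM in mature replicates 1 to 3. Mature replicate 3 lay within the dikaryophase range, and the other mature libraries above it.

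Cla009288 had 53.3, 207 and 81.7 CPM in mononuclear replicates 1 to 3 and 983, 1435 and 1477 CPM in dikaryophase replicates 1 to 3. The groups did not overlap, and mononuclear replicate 2 was again the highest of its stage. The log2 change was 3.58 ± 0.38 (SE, n = 3 per stage, limma adjusted p = 0.000127). Without mononuclear replicate 2 it was 4.12. Tetrad libraries had 5.65 to 7.58 CPM and mature libraries 1942 to 2674 CPM, so its libraries stood in the order of the stages from tetrad to mature, with no overlap between neighbours. By mean CPM it went from rank 1664 of all genes at the mononuclear stage to rank 28 at the dikaryophase and rank 8 at maturity.

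Cla010382 had the most reads of all genes at the mononuclear stage, with 21238, 22319 and 32682 CPM in replicates 1 to 3. At the dikaryophase it had 9916, 3639 and 5663 CPM, below each mononuclear library, and it still ranked 5 among all genes. The log2 change was -2.23 ± 0.51 (SE, n = 3 per stage, limma adjusted p = 0.0149). This call rested on single libraries: the adjusted p was 0.0564 without mononuclear replicate 3 and 0.0696 without dikaryophase replicate 2, with log2 changes of -2.01 and -1.87. Tetrad libraries had 1492, 3923 and 2924 CPM and mature libraries 65.4 to 253 CPM. The gene was thus highest at the mononuclear stage, and 1 tetrad library, replicate 2, lay within the dikaryophase range.

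Cla006059 had 5510, 7914 and 5950 CPM in mononuclear replicates 1 to 3, and 783, 52.6 and 329 CPM in dikaryophase replicates 1 to 3. The stages did not overlap, and the dikaryophase libraries differed widely among themselves. The log2 change was -4.89 ± 0.85 (SE, n = 3 per stage, limma adjusted p = 0.00299), -5.76 without dikaryophase replicate 1 and -3.79 without dikaryophase replicate 2. At the tetrad stage it had 3425, 5385 and 3077 CPM, below the mononuclear libraries, and at maturity 0.865 to 6.14 CPM.

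**Figure D4:**
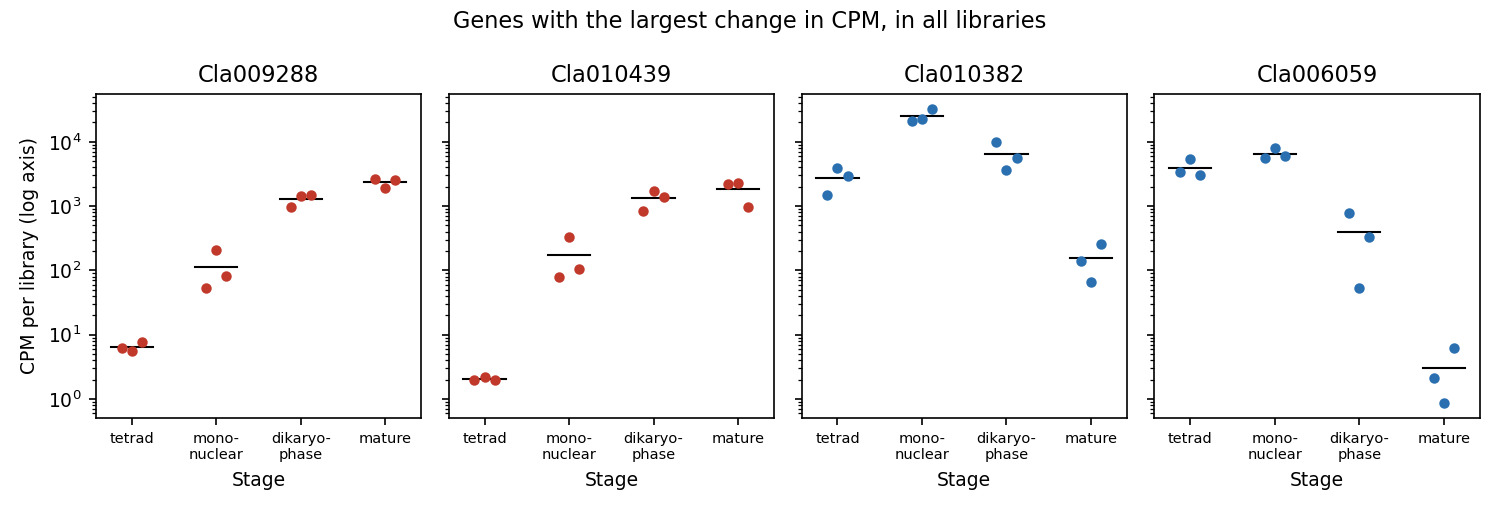
Points give the CPM of 4 genes in each of the 12 libraries on a log axis (vertical) by stage (horizontal), with a line at the mean of 3 libraries. Cla009288 and Cla010439 (red) go from 53.3 to 332 CPM at the mononuclear stage to 827 to 1723 CPM at the dikaryophase, and Cla010382 and Cla006059 (blue) are highest at the mononuclear stage and lowest at maturity.

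The tetrad and mature libraries share no library with the comparison of the middle stages, and they placed the called genes within the wider course of anther development. Between these ends, 3576 genes (20.5% of those tested) were called by the same fit and thresholds, 1789 higher (10.2%) and 1787 lower (10.2%) at maturity. Of the 605 rises to the dikaryophase, 577 (95.4%) were also higher at maturity than in tetrads, 28 were not called and 0 were lower. The 577 made up 32.3% of the genes higher at maturity. Rises called lower at maturity numbered 0 to 6 over the alternatives, with 6 under the adjusted p alone, 3 without mononuclear replicate 2 and 1 by limma-voom. At an unadjusted p under 0.05 with a 2-fold change between the ends there were 0 by limma. Both contrasts were taken from 1 fit that pools the spread of all stages. When each pair of stages was fitted alone, 495 genes rose to the dikaryophase, and 96.8% of them were higher at maturity.

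The falls were split by the end stages. Of the 506, 378 (74.7%) were also lower at maturity than in tetrads, which is 21.2% of the genes lower at maturity. A further 114 (22.5%) were not called between tetrad and mature anthers, and 14 (2.77%) were higher at maturity. With each pair of stages fitted alone, 439 genes fell to the dikaryophase and 71.5% of them were lower at maturity. Whether the share following the end stages differs between rises and falls was not tested. The share lower at maturity was larger among the strong falls, with 60 of the 61 falls of at least 32-fold (98.4%), than among falls of 2-fold to 4-fold, with 145 of 247 (58.7%). For rises the shares higher at maturity were 144 of 144 at 32-fold or more and 225 of 248 (90.7%) at 2-fold to 4-fold. The difference in share between the size classes was not tested, and smaller changes are also the harder to call in a second comparison.

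**Figure D5:**
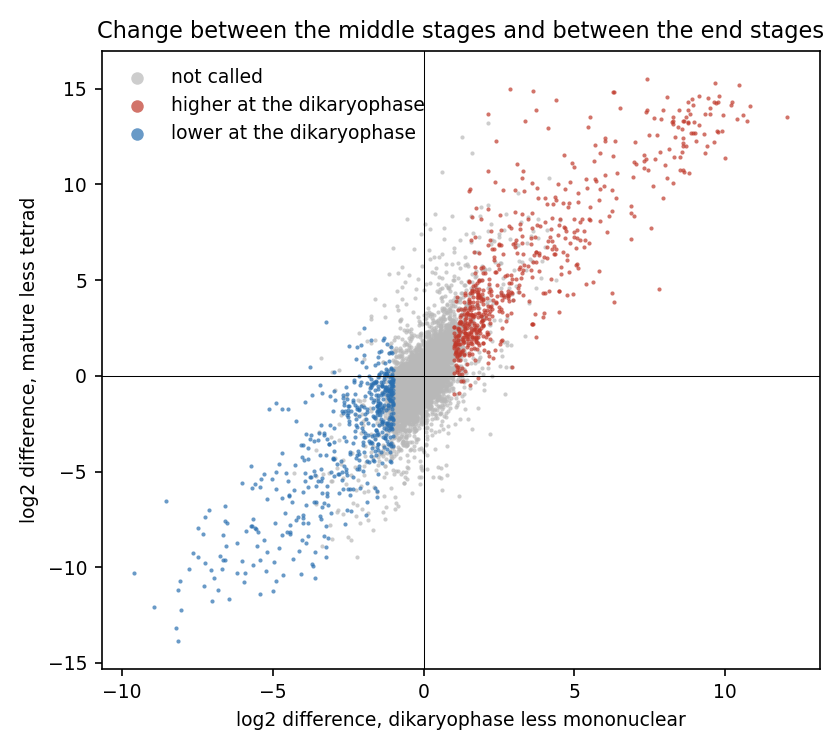
Each point is a tested gene, placed by its log2 difference between dikaryophase and mononuclear libraries (horizontal) and between mature and tetrad libraries (vertical), which share no library. Of the 605 rises (red), 577 were called higher at maturity, and of the 506 falls (blue), 378 were called lower at maturity and 14 higher.

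Falling genes could be divided by what the end stages showed. The 378 falls that were also lower at maturity took 13.1% ± 2.12 of reads in tetrad libraries (SD, n = 3), 10.9% ± 2.05 in mononuclear, 1.97% ± 0.642 at the dikaryophase and 0.504% ± 0.0206 at maturity. The 114 falls not called between the ends took 0.595% ± 0.0657, 1.33% ± 0.131, 0.502% ± 0.0735 and 0.441% ± 0.0110 in the same order. Their median level was 14.2 to 19.4 CPM in tetrad, 39.1 to 42.6 CPM in mononuclear, 12.9 to 18.3 CPM in dikaryophase and 15.1 to 16.1 CPM in mature libraries. Their median was highest at the mononuclear stage and the other stages lay close to each other, which their choice favours. The 14 falls that were higher at maturity had medians of 5.52 to 7.61 CPM in tetrad, 49.4 to 67.2 CPM in mononuclear, 15.96 to 33.2 CPM in dikaryophase and 17.8 to 22.9 CPM in mature libraries. Their number ranged from 7 to 24 as single libraries were left out: it was 7 without dikaryophase replicate 2, 8 without mononuclear replicate 1, 9 without dikaryophase replicate 3 and 24 without dikaryophase replicate 1. It was 45 under the adjusted p alone, 1 at a log2 fold change of at least 2 and 0 by limma's treat test.

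Rising genes were mostly those also higher at maturity. The 577 that were also higher at maturity took 0.268% ± 0.00760 of reads in tetrad libraries (SD, n = 3), 0.616% ± 0.143 in mononuclear libraries, 4.13% ± 0.745 at the dikaryophase and 9.71% ± 1.80 at maturity. Their median level went from 0.802 to 0.885 CPM in tetrad and 1.31 to 2.93 CPM in mononuclear libraries to 13.7 to 20.96 CPM at the dikaryophase and 28.8 to 51.3 CPM at maturity. The median log2 difference between mature and tetrad libraries was 4.84 for these genes, against 2.59 between dikaryophase and mononuclear libraries. The 28 rises not called between the ends had medians of 6.45 to 8.53 CPM in tetrad, 3.33 to 4.25 CPM in mononuclear, 10.1 to 14.9 CPM in dikaryophase and 8.13 to 8.98 CPM in mature libraries. Their lowest median lay at the mononuclear stage, which their choice favours.

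Genes called between the end stages gave a measure of where each middle library stood. The fit behind these calls pools the spread of all stages. For a gene called between tetrad and mature anthers, a library's log2 level was placed between the mean tetrad level (0) and the mean mature level (1), and the median was taken over genes. Over the 1789 genes higher at maturity, mononuclear replicates 1 to 3 stood at 0.259, 0.339 and 0.291, and dikaryophase replicates 1 to 3 at 0.742, 0.777 and 0.676. Over the 1787 genes lower at maturity, they stood at 0.464, 0.349 and 0.427, and at 0.763, 0.759 and 0.691. The stages did not overlap in either measure. The difference between the stage means was 0.435 for the genes that increase towards maturity and 0.324 for those that decrease. The exact permutation test over 20 groupings gave p = 0.10 for each (two-sided, n = 3 per stage, 0.10 after adjustment over both), which is the smallest value that 3 against 3 libraries can give. Mononuclear replicate 2 was the most advanced library of its stage by the increasing genes (0.339) and the least advanced by the decreasing ones (0.349). Dikaryophase replicate 3 was the least advanced of its stage by both. With genes called in a fit of the tetrad and mature libraries alone, the differences between the stage means were 0.442 (increasing) and 0.324 (decreasing). The 1 CPM filter still used all 12 libraries.

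Reads were spread over more genes at the dikaryophase. The 10 leading genes of a library took 11.2%, 11.4% and 13.6% of reads in mononuclear replicates 1 to 3, and 8.99%, 7.73% and 9.22% in dikaryophase replicates 1 to 3. The genes needed to hold 50% of the reads numbered 1102, 1053 and 900 at the mononuclear stage and 1323, 1369 and 1283 at the dikaryophase. Genes at 1 CPM or more numbered 16574, 16753 and 16514 in mononuclear replicates 1 to 3, and 16842, 16880 and 16871 in dikaryophase replicates 1 to 3. The stages did not overlap in any of these 3 measures. Each had an exact two-sided permutation p of 0.10 with n = 3 per stage, the smallest this design allows, and 0.10 after Benjamini-Hochberg adjustment over the 3.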

How the data were processed

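The authors deposited 1 table of log2 values, with genes in rows and libraries in columns. The aligner, counter, genome build and strand setting: not given in the sources used here. Hence reads of overlapping or near-identical genes cannot be assigned with certainty. In each library, 2 to the power of the value, less 1, was a whole multiple of 1 step for 100% of values (tolerance 0.01 reads), so the values are log2 of reads divided by a library factor, plus 1. Factors ran from 0.887 to 1.07. Normalised reads are these values without the log, and CPM were computed from the recovered reads. All columns belonged to a sample.

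Genes at 1 CPM or more in at least 3 of 12 libraries were tested, 17484 of 23440, with at least 99.9% of reads. Since the table holds log2 values, limma (3.58.1, R 4.3.3) was fitted to them across all genes, with a mean per stage and a variance trend, and the count-model test planned for raw counts was not used. The code of the fit was run on simulated data with an equal relative spread for all genes. In the real data the spread was wider for called genes, so that run checks the code and not the calls. Genes were named by rule: among called genes whose stages did not overlap, the 2 that gained the most mean CPM and the 2 that lost the most. The comparison, thresholds and lists were chosen with earlier results of these data known. Gene lists and cell type markers rest on gene descriptions and were not computed.

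By the values, replicate numbers paired the mononuclear and dikaryophase libraries weakly, and the tetrad and mature libraries showed no such pattern. Deviations from the stage mean correlated at 0.113, 0.150 and 0.174 between same-numbered mononuclear and dikaryophase libraries, and at most -0.0142 between others. Deviations cancel out within a stage, so these negative values follow in part from the positive ones. Between tetrad and mature libraries, deviations correlated at 0.0253, -0.0062 and -0.0581 with the same number, and at -0.0637 to 0.0537 otherwise. The labels state no pairing. No pair of libraries of a stage agreed within counting noise, with median squared deviations of 8.34 to 17.9 in units of counting variance. Between the stages these ran from 15.1 (mononuclear replicate 1 with dikaryophase replicate 1) to 36.0 (mononuclear replicate 3 with dikaryophase replicate 2). The ranges within and between stages thus overlapped. Alternatives were other scalings, filters, pseudocounts and thresholds, limma's treat test, limma-voom on the recovered reads, the compared stages alone, no variance trend, a replicate block, and libraries left out.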

Additional observations from a re-analysis of the deposited data

How the results depend on the processing

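Of 336 values recomputed under the alternatives, 296 kept their direction and their side of the threshold or, for counts, stayed within 1.5 times. Counts have no direction that could change, and among the other values 0 changed direction. The 1111 calls (605 rises, 506 falls), the 577 shared rises and the 378 shared falls moved by more than 1.5 times only with the threshold. Limma's treat test against a 2-fold change called 432 genes (256 rises, 176 falls), with 252 and 146 shared with the end stages. A log2 fold change of at least 2 gave 616 (357 and 259), with 345 and 210 shared. The adjusted p alone gave 1907 genes and 1023 falls, 727 of them shared. With each library left out in turn, 859 to 1121 genes were called (450 to 607 rises, 394 to 523 falls), with 431 to 561 rises and 293 to 407 falls shared.

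The replicate block called 1118 genes, 1071 of them among the 1111, and changed no call of a named gene. Limma-voom on the recovered reads called 1003 genes, 950 of them among the 1111. Library size as the only scaling moved the median of all genes by 0.15 (log2) and made 64.4% of calls rises, against 54.5%. That fit was not recomputed relative to the shift. Median centring of the main values, which sets the library medians equal, made 54.2% of calls rises (606 rises, 513 falls). The share of rises was 49.9% without mononuclear replicate 1. The fall of Cla010382 was lost in 5 of 23 alternatives (adjusted p 0.0101 to 0.435 over all), and the other 3 named genes were called in all 23. A level of 1 CPM stood for at least 58.1 reads in the 6 libraries, and no shallower depth was tried. The exact tests of library measures cannot reach a p under 0.10 with 3 against 3 libraries.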
